A study of Mus musculus with 10 samples.

Results

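Dusp9, Klhl13, Nr0b1 and Tfe3 are X-linked mouse genes that have been tied to the dosage of the X chromosome in pluripotent cells and to MAPK signalling. They were taken by name from the deposited tables, as 4 of the 1028 X-linked genes and of 24386 genes in all, and 3 of them, all but Klhl13, had reads. All 10 samples were wild-type (WT) TX1072 cells, a single female embryonic stem cell (ESC) line from a cross of Mus musculus castaneus (Cast) with C57BL/6 (B6), in which a doxycycline (DOX) inducible promoter drives the endogenous Xist gene on the B6 X chromosome. The cells received DOX at 1 µg/ml for 0, 4, 8, 12 or 24 h, with 2 replicates per time, after 24 h of culture in serum with LIF and the MEK and GSK3 inhibitors PD0325901 and CHIR99021 (2i). The inhibitors were present in every group. Every treated sample had both DOX and induced Xist, and later samples had also been longer in culture, so these influences cannot be told apart. The study describes its replicates as biological duplicates.

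A female ESC keeps both X chromosomes active until X-chromosome inactivation (XCI), when Xist RNA coats one of them and its genes are silenced. Female ESCs with both X chromosomes active are known for weaker output of the MAPK pathway and a more stable naive pluripotent state than male ESCs. Dusp9 encodes a phosphatase that dephosphorylates ERK kinases, Klhl13 a substrate adaptor of the Cullin-3 ubiquitin ligase, Nr0b1 (also called Dax1) an orphan nuclear receptor of the pluripotency network that acts mainly as a corepressor, and Tfe3 a basic helix-loop-helix factor of the MiT family that activates lysosomal genes and, in the nucleus of ESCs, helps keep the naive state.

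Transient transcriptome sequencing (TT-seq) reads RNA labelled with 4-thiouridine, here for 5 min, so its counts follow ongoing transcription rather than stored mRNA. Reads that covered a strain difference were assigned to the B6 copy, on the X chromosome with inducible Xist, or to the Cast copy. The d-score is the B6 share of those allelic reads. Total counts per sample ran from 18809046 to 22274929. Xist had 32 and 31 reads at 0 h and 6348 to 14211 in the samples with DOX, in which 0.998 to 1.00 of its allelic reads were B6. Counts summed over markers of ESCs were 2587 to 2845 CPM (counts scaled to the library total) over the 10 samples, with 1 of 7 markers, Sox2, at 0. Primitive endoderm markers summed to 2.04 to 3.02 CPM, trophoblast markers to 5.96 to 11.2 CPM and fibroblast markers to 2.96 to 6.01 CPM. The summed level of 5 markers of formative or primed epiblast was 157 and 162 CPM at 0 h and 116 and 138 CPM at 24 h. Among these markers Sox3 is itself X-linked, so the sum is not a reading of cell state alone. The part of this summed level in the results below was not tested.

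The promoters of the pair of members whose B6 share fell are shown because silencing was read at the genes they start. Each line gives the 250 bases before the annotated start, from RefSeq on GRCm38.p6, the same build as mm10. Capitals mark matches, on either strand, to the nuclear receptor half-site AGGTCA or to the TATA box TATAAA. The E-box CACGTG, a sequence of the kind that MiT factors bind, was searched too and was in neither.

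Nr0b1 chrX:86191525-86191774, plus strand: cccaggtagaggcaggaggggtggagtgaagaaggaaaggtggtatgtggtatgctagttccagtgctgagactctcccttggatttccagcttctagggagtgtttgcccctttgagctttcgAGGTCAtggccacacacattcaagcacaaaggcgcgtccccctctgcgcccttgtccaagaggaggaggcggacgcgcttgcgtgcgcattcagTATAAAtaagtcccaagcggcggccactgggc
Tfe3 chrX:7762411-7762660, plus strand: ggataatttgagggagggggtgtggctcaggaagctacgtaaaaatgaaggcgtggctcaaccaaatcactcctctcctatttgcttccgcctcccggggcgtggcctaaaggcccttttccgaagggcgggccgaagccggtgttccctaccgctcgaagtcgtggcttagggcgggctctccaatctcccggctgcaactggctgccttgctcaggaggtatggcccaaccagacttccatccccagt

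The Nr0b1 promoter held 1 half-site and 1 TATA box, close to its 3′ end, and the Tfe3 promoter held neither. Among 32851 mouse promoters of this length, 14.0% held the half-site, 12.4% the TATA box and 6.0% the E-box. The Nr0b1 window had 11 CG dinucleotides and a GC content of 57.2%, and the Tfe3 window had 14 and 59.6%. These matches describe the letters of the windows and are not binding sites shown by data. Dusp9 is named here without a promoter sequence.

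Klhl13 had 0 reads in all 10 samples, and the tables give a reason to leave that value unread. The gene is annotated on the minus strand of the X chromosome at 23219271 to 23365082 (mm10). In the deposited gene spans it lies wholly inside Btbd35f15, also on the minus strand, whose span of 3750926 to 33577346 covers 29.8 Mb, although GENCODE places that gene at 33575398 to 33577314. The row of Btbd35f15 itself held 7705 to 10237 reads per sample.

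All 82 minus-strand genes inside the Btbd35f15 span had 0 reads in every sample. Among them were Med14, a core Mediator subunit, Bcor, a Polycomb-associated corepressor, and Cask, a scaffold kinase. On the plus strand of the same stretch 31 of 101 genes (30.7%) were at 0. Elsewhere on the X chromosome 78 of 420 minus-strand genes (18.6%) and 99 of 424 plus-strand genes (23.3%) were. Sox2 stood in the same position on chromosome 3, at 0 reads within the same-strand span of Sox2ot, which had 1695 to 2111. The level of Klhl13 in these cells was therefore not measured by these tables, and no upper limit was set from its 0. Dusp9, Nr0b1 and Tfe3 shared no span with a gene on their own strand.

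**Figure D1:**
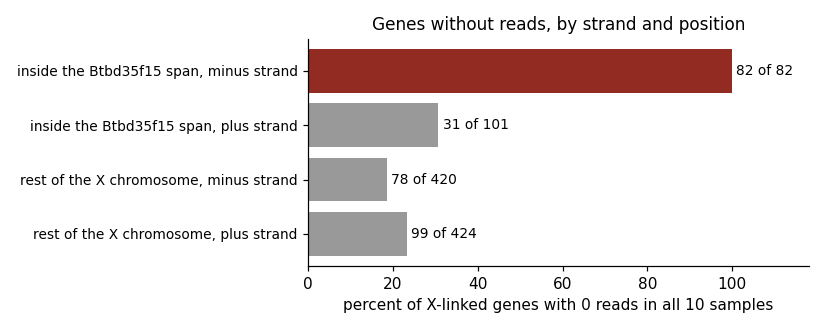
Percent of X-linked genes with 0 reads in all 10 samples (horizontal axis), by strand and by position inside or outside the deposited span of Btbd35f15; the labels give the number of genes at 0 of the number in the class. The bar for the minus strand inside the span, which holds Klhl13, reaches 82 of 82, and the other classes lie between 18.6% and 30.7%.

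Of the 3 members with reads, Nr0b1 gave the highest nascent signal per kilobase of gene span at 0 h, 6.23 ± 0.279 CPM per kb (SD, n = 2), then Dusp9 with 5.49 ± 1.88 and Tfe3 with 4.47 ± 0.318. The Dusp9 replicates, 6.82 and 4.15 CPM per kb, enclosed every value of the other two, so only the order of Nr0b1 above Tfe3 was wider than the replicates. At 24 h the levels were 6.25 ± 0.632 for Nr0b1, 3.41 ± 1.14 for Dusp9 and 3.29 ± 0.121 CPM per kb for Tfe3 (SD, n = 2). Nr0b1 then lay above both, and Dusp9 and Tfe3 overlapped.

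The members also differed in how many reads could be assigned to an allele. Allelic reads were 58.4% to 68.7% of the Nr0b1 count, 44.5% to 52.8% of the Tfe3 count and 15.5% to 23.2% of the Dusp9 count. That left 237 to 377 allelic reads per sample for Nr0b1, 382 to 561 for Tfe3 and 46 to 107 for Dusp9. Precision on the share of Dusp9 was accordingly the lowest. By group mean, the allelic part of the Nr0b1 count went from 59.5% at 0 h to 67.4% at 24 h. It went from 46.3% to 47.6% for Tfe3 and from 20.81% to 18.05% for Dusp9. What this adds to the Cast change of Nr0b1 given below was not tested.

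Against 0 h, the B6 share at 24 h was called lower for 2 of these 3 genes, Nr0b1 and Tfe3. The same held for 75.1% of the 362 X-linked genes tested and for 2.4% of all 11906 genes tested, so that count is near the X-linked background. Calls rest on an adjusted p under 0.05 from edgeR quasi-likelihood tests with Benjamini-Hochberg adjustment over all genes tested. The total count was called lower at 24 h for 1 of the 3, Tfe3, beside 38.0% of 502 X-linked genes and 1.54% of all genes. For the Cast count 1 of the 3, Nr0b1, was called higher, beside 0.529% of 378 X-linked genes and 0.0755% of all genes, and none lower, beside 0.265% and 0.101%. For the B6 count the same pair, Nr0b1 and Tfe3, was called lower, beside 75.6% of 365 X-linked genes and 2.46% of all genes.

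**Figure D2:**
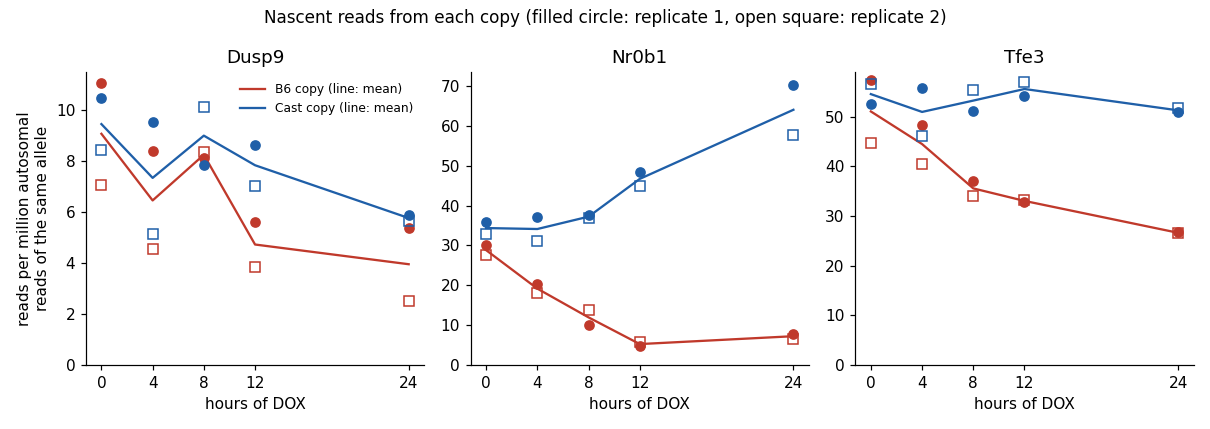
Nascent reads of Dusp9, Nr0b1 and Tfe3 (vertical axis, CPM of autosomal reads of the same allele) against hours of DOX, with B6 reads in red and Cast reads in blue; points are the replicates and lines their means. For Nr0b1 the Cast points rise to 70.3 and 57.8 at 24 h while the B6 points fall to 7.88 and 6.53, for Tfe3 the Cast points stay between 46.0 and 57.0, and for Dusp9 the points of both copies overlap at 0, 4 and 8 h.

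Nr0b1 (chromosome X, 86191775 to 86195946, plus strand) spans 4.17 kb, of which 43.0% is exonic, and lies 17.28 Mb from Xist. Its B6 copy lost most of its transcription within 12 h, while its Cast copy rose, and its total at 24 h lay close to its 0 h level. B6 reads were 155 and 160 (0 h), 99 and 92 (4 h), 57 and 71 (8 h), 26 and 33 (12 h), 41 and 39 (24 h). The values at each time up to 12 h lay wholly below those of the time before, and those at 24 h lay above those at 12 h and below those at 8 h.

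The d-score of Nr0b1 was 0.474 and 0.478 (0 h), 0.371 and 0.388 (4 h), 0.225 and 0.289 (8 h), 0.0952 and 0.122 (12 h), 0.109 and 0.110 (24 h). Groups did not overlap until 12 h, and both 24 h values lay between the 12 h ones. On the log2 scale of B6 over Cast reads, the change against 0 h was -0.57 ± 0.188 (SE) at 4 h (adjusted p = 0.434), -1.39 ± 0.196 at 8 h (adjusted p = 1.2e-08), -2.89 ± 0.218 at 12 h (adjusted p = 4.5e-23) and -2.89 ± 0.201 at 24 h (adjusted p = 1.3e-25). The steps from 4 to 8 h (-0.82, adjusted p = 0.0151) and from 8 to 12 h (-1.50, adjusted p = 2.2e-05) both passed the test. The first of these calls was lost with DESeq2 (adjusted p = 0.511) and without replicate 1 of 4 h (0.103), replicate 2 of 4 h (0.216) or replicate 1 of 8 h (-0.59, adjusted p = 0.672). Between 12 and 24 h the share moved by 0.01 (95% interval -0.42 to 0.43).

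The share was called lower in 52.8% of X-linked genes at 8 h and 65.5% at 12 h, and in 37.6% and 13.8% for the steps from 4 to 8 h and from 8 to 12 h. Among the 362 X-linked genes tested, only 2 had a lower log2 change of the share at 12 h than Nr0b1, and 10 had at 24 h. By its B6 reads alone Nr0b1 ranked 13 from the lowest of 365 X-linked genes at 12 h and 83 (22.7% at or below) at 24 h. The X-linked medians of the share change were -1.01 at 12 h and -1.27 at 24 h, and those of the B6 change were -1.02 and -1.29. IC35, the time at which a fitted curve of the d-score normalised to 0.5 at 0 h reaches 0.35, was 5.35 h for Nr0b1. Of the 330 X-linked genes with a usable curve, 35 (10.6%) were earlier. Tfe3 and Dusp9 did not reach that level by 24 h, though Dusp9 did at 15.31 h without replicate 1 and Tfe3 at 17.24 h without replicate 2.

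**Figure D3:**
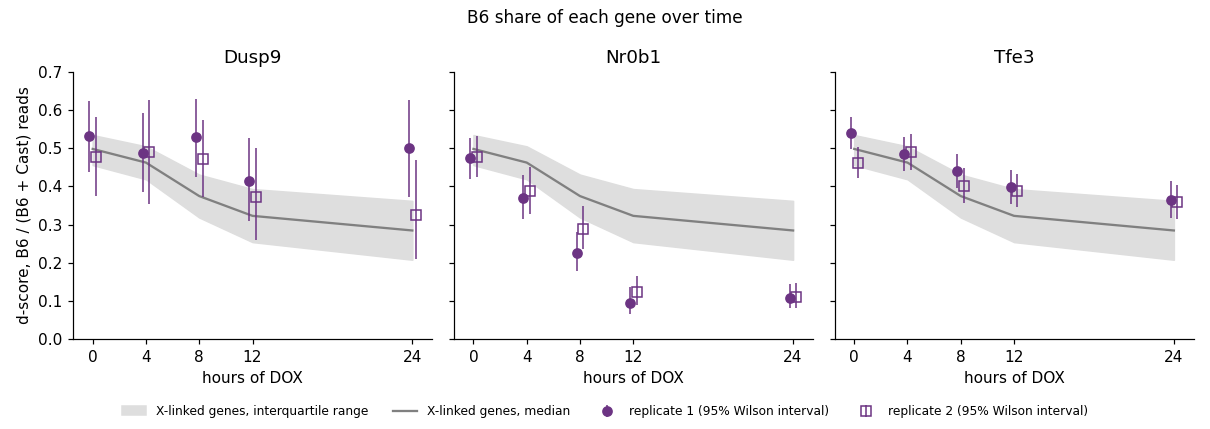
The d-score (vertical axis, B6 over B6 plus Cast reads) of each member against hours of DOX; circles are replicate 1, squares replicate 2, bars 95% Wilson intervals that cover counting error only, and the grey line and band are the median and interquartile range of X-linked genes. The Nr0b1 points lie below the band from 4 h on and are at 0.109 and 0.110 at 24 h, those of Tfe3 lie near its upper edge from 8 h on, with replicate 1 above it, and the Dusp9 intervals are the widest.

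On the Cast chromosome, the Nr0b1 reads were 172 and 175 (0 h), 168 and 145 (4 h), 196 and 175 (8 h), 247 and 237 (12 h), 336 and 317 (24 h). Both 24 h values lay above both 12 h values, which in turn lay above all earlier ones. The fitted Cast log2 change was 0.01 at 4 h, 0.14 at 8 h, 0.49 ± 0.135 at 12 h (adjusted p = 0.277) and 0.91 ± 0.131 at 24 h (SE, 95% interval 0.64 to 1.18, adjusted p = 0.00302), a fold of 1.88. With the replicate number as a block the 12 h change was called as well (0.49, adjusted p = 0.016). Without replicate 1 of 24 h the 24 h change was 0.77 and was no longer called (adjusted p = 0.112).

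In the Cast counts at 24 h 21 of 11923 genes were called, and Nr0b1 had the second lowest adjusted p of them. Only 3 of these were X-linked: Nr0b1 and Tsix, the antisense partner of Xist, were higher, and Ftx, a noncoding neighbour of Xist, was lower. Nr0b1 ranked 3 from the highest of 378 X-linked genes by its Cast change, against an X-linked median of -0.00 and an interquartile range of -0.13 to 0.13.

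Total Nr0b1 reads were 560 and 552 (0 h), 432 and 385 (4 h), 403 and 417 (8 h), 413 and 421 (12 h), 549 and 539 (24 h). The 4 to 12 h samples lay below every 0 h and 24 h sample, in reads and in CPM. In CPM the 24 h values, 27.9 and 24.2, enclosed those at 0 h, 26.8 and 25.2. The fitted log2 change of the total was -0.26 at 4 h (adjusted p = 1.00), -0.35 at 8 h (adjusted p = 0.669), -0.36 at 12 h (adjusted p = 0.186) and 0.02 at 24 h (95% interval -0.21 to 0.24, adjusted p = 0.99). With the replicate block the 12 h change (-0.36, adjusted p = 0.0222) and the rise from 12 to 24 h (0.37, adjusted p = 0.0402) were called. Had the Cast copy stayed at its 0 h level, the measured d-scores would give a total change of -0.77 at both 12 and 24 h. The measured 24 h change ranked 22 from the highest of 502 X-linked genes, whose median was -0.50.

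Tfe3 (chromosome X, 7762661 to 7775202, plus strand) spans 12.54 kb, 73.2% of it exonic, and lies 95.7 Mb from Xist. Transcription from its B6 copy fell slowly and only in part, its Cast copy did not pass the test at any time, and its total was lower at 24 h. The d-score was 0.541 and 0.462 (0 h), 0.485 and 0.489 (4 h), 0.440 and 0.401 (8 h), 0.397 and 0.388 (12 h), 0.364 and 0.358 (24 h). The 0 h replicates lay apart and enclosed the 4 h values, and from 4 h on each time lay wholly below the one before.

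The log2 change of the Tfe3 share against 0 h was -0.08 at 4 h, -0.46 ± 0.146 at 8 h (adjusted p = 0.0994), -0.64 ± 0.145 at 12 h (adjusted p = 0.00141), reaching -0.83 ± 0.151 (SE) by 24 h (adjusted p = 1.3e-05). None of the steps between successive later times passed the test. The 8 h change was called with the replicate block (-0.47, adjusted p = 0.0484), and the 12 h change was lost with DESeq2 (adjusted p = 0.325) and without replicate 1 of 0 h (-0.41, adjusted p = 0.455) or replicate 2 of 12 h (-0.61, adjusted p = 0.0505). At 24 h Tfe3 stood above the X-linked median, with 77.6% of the 362 genes at or below its change.

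From 0 to 24 h the B6 reads of Tfe3 went from 296 and 259 to 139 and 158, and its Cast reads from 251 and 302 to 243 and 283. In CPM of the autosomal reads of each allele, the B6 level went from 51.0 ± 9.08 to 26.6 ± 0.17 and the Cast level from 54.5 ± 2.93 to 51.2 ± 0.552 (SD, n = 2). The fitted 24 h change was -0.91 ± 0.14 for B6 (adjusted p = 0.000111) and -0.08 ± 0.119 for Cast (95% interval -0.32 to 0.17, adjusted p = 0.952). A rise of the Cast copy of the size seen for Nr0b1 lies outside that interval.

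Total Tfe3 reads were 1229 and 1167 (0 h), 1056 and 893 (4 h), 999 and 850 (8 h), 867 and 987 (12 h), 790 and 943 (24 h). Scaled to the library total, the samples from 8 h on, 40.2 to 46.7 CPM, lay below both 0 h samples (58.9 and 53.2 CPM), and replicate 1 of 4 h, at 56.1 CPM, lay between those. The total fell by 0.43 on the log2 scale at 24 h (SE 0.0945, adjusted p = 0.0284), where the d-scores with a level Cast copy would give -0.36. That call was lost without replicate 1 of 0 h (adjusted p = 0.194), without replicate 1 of 24 h (0.25) and without replicate 2 of 24 h (0.11). With the replicate block it held (adjusted p = 0.000434), and the 12 h change was called too (-0.31, adjusted p = 0.0161).

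Dusp9 (chromosome X, 73639441 to 73643514, plus strand) spans 4.07 kb, 66.3% of it exonic, and lies 29.83 Mb from Xist. Its total, B6 and Cast reads had lower values at 24 h than at 0 h, and the spread between replicates was wide. In the main tests, which leave out the replicate number, none of these counts was called at any time, nor was its share. Total reads were 580 and 371 (0 h), 415 and 304 (4 h), 407 and 419 (8 h), 342 and 288 (12 h), 337 and 236 (24 h). In CPM the 0 h values were 27.8 and 16.9, and of the later times only 12 h, at 16.3 and 13.3, lay wholly below them, since replicate 1 of 24 h was at 17.1. Replicate 2 was the lower one at each time except 8 h.

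The fitted log2 change of the Dusp9 total was -0.22 at 4 h, -0.11 at 8 h, -0.53 at 12 h (adjusted p = 0.367) and -0.68 ± 0.225 at 24 h (SE, 95% interval -1.16 to -0.20, adjusted p = 0.211). With the replicate number as a block the 12 h (-0.52, adjusted p = 0.00956) and 24 h changes (-0.67 ± 0.129, adjusted p = 0.000401) were called. Without the block the 12 h value was -0.17 when replicate 1 of 0 h was left out and -0.84 when replicate 2 of 0 h was. The block makes 2 of the 3 members lower at 24 h, by a fit in which 773 of all genes are called in place of 269. Leaving out single 0 h or 24 h samples moved the 24 h change. It was -0.30 without replicate 1 of 0 h, -0.98 without replicate 2 of 0 h (called, adjusted p = 0.0442), -1.06 without replicate 1 of 24 h and -0.38 without replicate 2 of 24 h.

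B6 reads of Dusp9 were 57 and 41 (0 h), 41 and 23 (4 h), 46 and 43 (8 h), 31 and 22 (12 h), 28 and 15 (24 h). Cast reads were 50 and 45, 43 and 24, 41 and 48, 44 and 37, and 28 and 31 at the same times. At 24 h both copies lay wholly below their 0 h values. The fitted 24 h change was -1.18 ± 0.349 for B6 (adjusted p = 0.0844, and 0.00403 with the replicate block) and -0.69 ± 0.287 for Cast (SE, adjusted p = 0.613, and 0.251 with the block). The Cast change ranked 9 from the lowest of 378 X-linked genes, but it did not pass the test.

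The d-score of Dusp9 was 0.533 and 0.477 (0 h), 0.488 and 0.489 (4 h), 0.529 and 0.473 (8 h), 0.413 and 0.373 (12 h), 0.500 and 0.326 (24 h). The 12 h values lay below all earlier ones, whereas the 24 h replicates lay on either side of them, with 95% Wilson intervals of 0.373 to 0.627 and 0.209 to 0.470. The log2 change of the share was -0.65 ± 0.352 at 12 h (adjusted p = 0.727) and -0.50 ± 0.378 at 24 h (SE, 95% interval -1.25 to 0.25, adjusted p = 0.863). That interval runs from close to the X-linked median of -1.27 to above 0. Without replicate 1 of 24 h the 24 h value was -1.08, and without replicate 2 of 24 h it was -0.04, neither called.

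**Figure D4:**
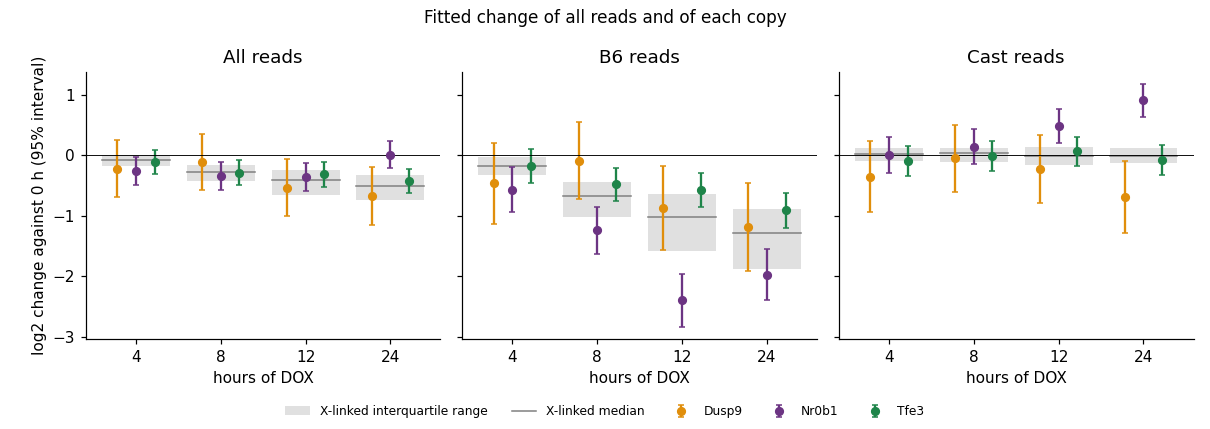
Fitted log2 change against 0 h (vertical axis) of all reads, B6 reads and Cast reads for Dusp9, Nr0b1 and Tfe3 at 4, 8, 12 and 24 h of DOX; bars are 95% intervals, and the grey line and band are the median and interquartile range of X-linked genes. At 24 h the B6 change of all 3 genes is below 0 while the Cast change is 0.91 for Nr0b1, -0.08 for Tfe3 and -0.69 for Dusp9.

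Set against each other at 24 h, Nr0b1 differed from Tfe3 in share, in both copies and in total. It differed from Dusp9 in share, Cast reads and total, whereas the B6 interval of that pair ended at -0.00. The fall of the Nr0b1 share at 24 h exceeded that of Tfe3 (difference of the log2 changes -2.05, 95% interval -2.55 to -1.56) and that of Dusp9 (difference -2.39, -3.22 to -1.55). Tfe3 and Dusp9 were not separated (difference -0.33, -1.13 to 0.47). For B6 reads the difference of Nr0b1 from Tfe3 was -1.07 (-1.55 to -0.59) at 24 h and -1.83 (-2.33 to -1.34) at 12 h, and from Dusp9 it was -0.79 (-1.58 to -0.00) and -1.53 (-2.31 to -0.75). For Cast reads at 24 h the Nr0b1 change lay 0.99 above that of Tfe3 (0.64 to 1.33) and 1.60 above that of Dusp9 (0.98 to 2.22). Tfe3 lay 0.62 above Dusp9, with an interval (0.01 to 1.22) that ends too close to 0 to separate that pair. In total counts Nr0b1 lay 0.44 above Tfe3 (0.16 to 0.72) and 0.69 above Dusp9 (0.21 to 1.18), and the gap of Tfe3 to Dusp9 was 0.25 (-0.23 to 0.73). These intervals treat the errors of the fitted genes as independent and take their multiple of the SE from a normal distribution. The intervals of single genes given above use a larger multiple, so those between members are narrower by comparison. At 24 h, whether 0 lies outside the B6 interval of Nr0b1 to Dusp9 or the Cast interval of Tfe3 to Dusp9 therefore stays undecided.

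**Figure D5:**
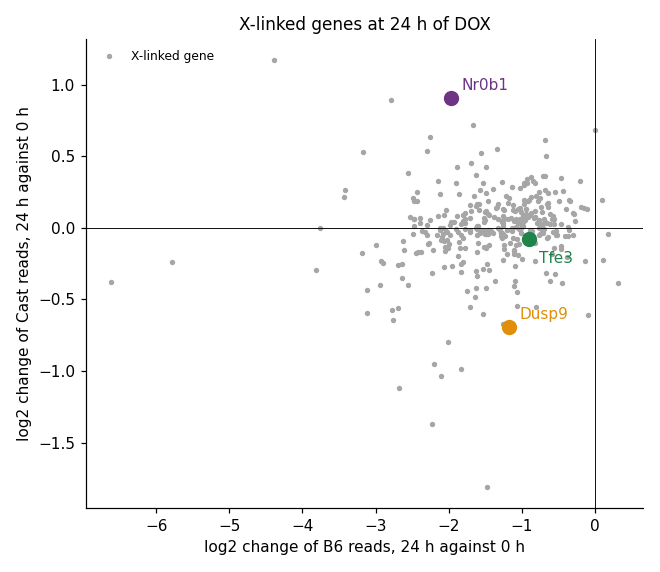
Fitted log2 change at 24 h against 0 h of B6 reads (horizontal axis) and Cast reads (vertical axis) for X-linked genes (grey points), with the 3 members marked. Nr0b1 sits at -1.97 and 0.91, near the top of the cloud, Tfe3 at -0.91 and -0.08 in its dense right-hand part, and Dusp9 at -1.18 and -0.69 near its lower edge.

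Neighbours on the chromosome gave a local comparison. The nearest tested gene before Nr0b1, Gk, which encodes glycerol kinase, had a share change of -2.69 ± 0.112 (adjusted p = 5.2e-45) and a mean d-score that went from 0.526 to 0.147. Its Cast change was 0.21 (adjusted p = 0.666) and its total fell by 0.67 (adjusted p = 0.000208). Gk lies 414.96 kb from Nr0b1. On the other side the nearest tested gene, Pola1, a DNA polymerase subunit, lies 7108.82 kb away and had a share change of -1.03 (adjusted p = 2.8e-49) and a Cast value of 0.25 (adjusted p = 0.406). Gripap1, 14.79 kb after Tfe3, had a share change of -1.50 ± 0.309 (adjusted p = 0.000189), and its difference from Tfe3 was not tested, while the other neighbour, Praf2, had as few as 10 allelic reads in a sample and did not pass the test. Next to Dusp9, Slc6a8, the creatine transporter, fell in share (-0.62 ± 0.15, adjusted p = 0.00288), with a Cast value of -0.45 (adjusted p = 0.456). Atp2b3, a plasma membrane calcium pump, had values of -1.05 in share (adjusted p = 0.336) and -0.42 in Cast reads (adjusted p = 0.89), and its total was called lower (adjusted p = 0.048).

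Genes with the time course of normalised d-score most like each member were sought by the root mean square difference over the means at 4, 8, 12 and 24 h, among 257 X-linked genes that had 50 or more allelic reads per sample. For Nr0b1 they were Slc25a53, Klf8 and Rragb, with differences of 0.0236, 0.0293 and 0.0319. Their Cast changes at 24 h were 0.03, 0.25 and -0.18, none called, and their total log2 changes were -0.57 (called), -0.40 (called) and -0.79 (adjusted p = 0.116). These are lower than the Nr0b1 changes of 0.91 (Cast) and 0.02 (total), a description with no test. For Tfe3 the closest were Rab9, A830080D01Rik and Renbp, with differences of 0.00367 to 0.00816, and for Dusp9 they were 5730405O15Rik, Rbm10 and Shroom4, with 0.0164 to 0.0262. Dusp9 itself had as few as 46 allelic reads in a sample, fewer than was asked of the candidates. Its normalised d-scores at 24 h, 0.469 and 0.342, lay further apart than these differences, so its matches are loose.

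Around these genes, few genes of the pathways they act in were called in total counts at 24 h, beside 1.54% lower and 0.31% higher among all genes tested. Of 20 genes of the ERK cascade, among them Fgf4, its receptors and the Ras and Raf proteins, 1 was lower and 0 higher, with 1 and 1 at an unadjusted p under 0.05. Araf, in this list, is itself X-linked and had a log2 change of -0.205 ± 0.112 (SE, adjusted p = 0.591). The 1 called was Fgfr2, a receptor for fibroblast growth factors, which went from 46.3 ± 2.43 to 20.7 ± 4.55 CPM (SD, n = 2), a log2 change of -1.15 ± 0.127 (SE, adjusted p = 0.000124). Its Cast reads fell too, by 1.13 (adjusted p = 0.000104). With the replicate block Nras was called higher as well. The median change of the list was 0.01, as over all genes tested (0.01).

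Transcriptional targets and feedback genes of ERK, of which 12 of 15 could be tested, gave 0 calls by edgeR, DESeq2 and limma alike. Unadjusted p-values were under 0.05 for 1 gene that was higher and 0 that were lower. Their median was 0.14. The log2 change was -0.46 ± 0.248 for the ERK phosphatase gene Dusp4 (adjusted p = 0.583) and 0.19 ± 0.0827 for Spry2, a feedback inhibitor (adjusted p = 0.426). The MEK inhibitor was present in every sample.

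Of 15 factors of naive pluripotency 14 were tested, all but Sox2, and 0 were called by edgeR, DESeq2 or limma. Here 2 genes had an unadjusted p under 0.05, both higher. They were Tbx3, a T-box factor (0.24 ± 0.088, adjusted p = 0.3, and called with the replicate block at 0.0359), and Nr5a2, a nuclear receptor (0.20 ± 0.0691, adjusted p = 0.247). Partners and relatives of the members (14 of 16 tested, among them Tfeb, Flcn, Cul3 and Dusp7) gave 0 calls by edgeR, DESeq2 and limma and 0 at an unadjusted p under 0.05 in either direction. The most changed by p were Rragc (-0.18, adjusted p = 0.557) and Rraga (0.32, adjusted p = 0.624), GTPases of the lysosomal pathway that holds Tfe3 in the cytoplasm. The medians of these lists were -0.00 and 0.01.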

How the data were processed

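TT-seq of 10 TX1072 samples was analysed. By the study's methods, reads were trimmed, aligned with STAR to mm10 masked at strain differences, kept as unique proper pairs with a mapping quality of at least 7, assigned to alleles with SNPSplit and counted by strand with featureCounts 1.5.1 over the longest span of each gene, introns included. The submitters' processing notes also name TopHat2 2.1.0 and bedtools. The authors deposited raw counts of all, B6 and Cast reads, and the B6 fraction, which matched the counts in every table. The methods name no setting for reads that overlap several genes, and no spike-in scaling of these values.

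Total, Cast and B6 counts were tested with edgeR 4.0.16 (R 4.3.3, quasi-likelihood, time as a factor, filterByExpr, TMM, two-sided, all 10 samples). TMM factors were 0.97 to 1.04. The B6 share was tested as the interaction of allele and time in a model over 20 columns (B6 and Cast counts, with a term for each sample), in genes that had 10 or more allelic reads per sample. DESeq2 1.42.0 and limma 3.58.1 were alternatives. An exact test of 2 samples against 2 cannot go under p = 0.333, so single values have none. p-values rest on the spread between duplicates, estimated over all times and shared in part among the genes tested. They measure no wider variation, such as that between cell lines. IC35 came from log-logistic curves with 4 parameters, and counting intervals are 95% Wilson. The scripts were tested on simulated data. Same-numbered replicates deviated together in total counts (r = 0.169 to 0.36 over all 10 pairs of times, mean 0.262). The main tests nevertheless have no term for the replicate number. Pairing by that number was used only in the alternative with the replicate block, whose calls are given beside the main ones.

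The named genes are the 4 members, Xist, the 3 genes most like each member, the nearest tested gene on each side, and, per list, the genes called at 24 h or else the 2 with the lowest p. Genes named beyond this rule (Med14, Bcor, Cask, Sox2, Tsix, Ftx, Nras) were chosen after their values were seen. Sox3 and Araf are named for their place on the X chromosome. Members and lists were chosen with earlier results of these data known.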

Additional observations from a re-analysis of the deposited data

Results flagged for a closer look

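The copies of Nr0b1 moved apart: at 24 h of DOX both B6 samples lay below, and both Cast samples above, all 0 h samples of the same copy. In the share fit given above, the change of B6 against Cast reads was -2.89 on the log2 scale (edgeR quasi-likelihood test, adjusted p = 1.3e-25). The B6 change was -1.97 and the Cast change 0.91. Without replicate 1 of 24 h the Cast change was 0.77 and was not called. Passing these tests was the condition for the flag, so they add no separate support.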

How the results depend on the processing

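In the alternatives run, no called value of the members changed sign. The first tally covers the members' values against 0 h, the steps in total and share, their counts at 24 h and IC35. There 968 entries kept their call or, as counts or times, did not move, 15 lost the call, 16 gained it and 13 counts or times moved. A kept call does not mean a kept size. The Dusp9 share at 24 h kept its call at -0.04 and at -1.08, against -0.50 in the main fit. Elsewhere (steps in B6 and Cast counts, list genes, other counts) 684 kept their call or did not move, 6 gained the call and 62 counts moved.

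The replicate block added calls, with log2 changes for Dusp9 of -0.52 (total, 12 h), -0.67 (total, 24 h) and -1.18 (B6, 24 h), for Nr0b1 of 0.49 (Cast, 12 h), -0.36 (total, 12 h) and 0.37 (total, 24 against 12 h), and for Tfe3 of -0.31 (total, 12 h), -0.48 (B6, 8 h) and -0.47 (share, 8 h). Between later times it also added Nr0b1 in B6 (12 against 8 h, -1.16) and Cast counts (24 against 12 h, 0.42). It changed no other call of the members. Members called at 24 h in total counts went from 1 to 2. In Cast and B6 counts 9 of 10 pairs of times had r over 0.1 between same-numbered replicates, and in the share 0 of 10.

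Without a filter on low counts, Dusp9 was called at 24 h in total (-0.68) and B6 counts (-1.19), which also made 2 members called. With DESeq2 the calls of the Nr0b1 share from 4 to 8 h (-0.82) and of Tfe3 at 12 h in B6 counts (-0.56) and share (-0.63) were lost. The cause was not tested.

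Leaving out each sample in turn gave ranges of -1.79 to -0.72 (Dusp9 B6, 24 h), -1.06 to -0.30 (Dusp9 total, 24 h), -1.08 to -0.04 (Dusp9 share, 24 h), 0.77 to 1.04 (Nr0b1 Cast, 24 h), -1.07 to -0.59 (Nr0b1 share, 4 to 8 h), -0.73 to -0.39 (Tfe3 B6, 12 h), -0.64 to -0.30 (Tfe3 B6, 8 h), -0.87 to -0.41 (Tfe3 share, 12 h), -0.70 to -0.24 (Tfe3 share, 8 h) and -0.48 to -0.38 (Tfe3 total, 24 h). Members called at 24 h ran from 0 to 2 in total and from 0 to 1 in Cast counts.

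IC35 at level 0.40 was 10.84 h for Dusp9, 10.28 h for Tfe3 and 4.3 h for Nr0b1, and at level 0.30 it was 6.42 h for Nr0b1. From 1 replicate alone it was 15.31 h for Dusp9 (without replicate 1), 17.24 h for Tfe3 (without replicate 2) and 4.93 to 5.94 h for Nr0b1.

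Genes called at 24 h were 269 in total counts (773 with the block, 131 to 268 leaving out a sample), 21 in Cast counts (146 with the block, 63 without the filter, 1 to 33 leaving out a sample) and 326 in B6 counts (510 with the block). Dusp9 has too few allelic reads for the alternative with at least 50. The Dusp9 share rests on 46 to 107 allelic reads per sample and on replicates that lay apart at 24 h.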
